A study of Drosophila melanogaster and Drosophila simulans and Drosophila yakuba with 8 samples.

Results

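Ntf-2r and Ran-like are intronless copies of 2 nuclear transport genes, Ntf-2 and Ran, and the account here covers these 4 genes in adult testis. They were chosen by name, through the gene identifiers FBgn0032680 (Ntf-2r), FBgn0031145 (Ntf-2), FBgn0036497 (Ran-like) and FBgn0020255 (Ran), and are 4 of the 15178 D. melanogaster genes listed. The current annotation, on the BDGP6 assembly, places both parents on the X chromosome and the copies on autosomes, Ntf-2r on arm 2L and Ran-like on arm 3L. It gives each copy a single exon, while the 4 transcripts of Ntf-2 have 4 or 5 exons and the 4 transcripts of Ran have 2 or 3. All 4 genes passed the filter on low values.

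Ran is a small GTPase whose GTP-bound form is kept high in the nucleus and low in the cytoplasm, and this difference gives nuclear import and export their direction. Ntf-2, nuclear transport factor 2, carries GDP-bound Ran back into the nucleus, so the parents work as partners in 1 cycle. In fruit flies, both are known to have given rise to retrocopies, copies made from spliced messenger RNA, that are expressed in testis.

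The libraries were single-end messenger RNA libraries from dissected testes of adult flies aged 1 to 7 days, all labelled as the Oregon-R strain. There were 2 Zeus knockdown libraries (nosGal4>>UAS-Zeus-RNAi), 2 Caf40 knockdown libraries (nosGal4>>UAS-Caf40-RNAi) and 2 wildtype libraries. The nos driver acts in germ cells and is present in both knockdowns, and driver-only testes were not analysed here. Whether replicates are separate sets of flies is not stated in the labels, so the p-values reflect only the spread between these libraries, which may be technical.

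Each library held between 12662615 and 24429722 reads on genes. Zeus is the gene Rcd-1r, itself a testis retrocopy of Caf40 (Rcd-1), which encodes part of CCR4-NOT, a complex that shortens poly(A) tails. The targeted genes were low where the labels say so: the Zeus knockdown libraries held 4.05 and 4.04 RPKM of Rcd-1r, wildtype 22.2 and 26.4 RPKM, and the Caf40 knockdown libraries held 25.7 and 23.3 RPKM of Rcd-1, wildtype 98.2 and 95.1 RPKM. RPKM is the authors' unit, reads scaled to listed exon length and to the mapped reads of the library. Comparing levels of different genes by it rests on the listed exon lengths.

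In the Caf40 knockdown both retrocopies fell and both parents rose, while in the Zeus knockdown the 4 genes had fitted log2 fold changes between -0.37 and 0.07. Fitted levels were 4.10-fold lower for Ran-like, 2.25-fold lower for Ntf-2r and 2.44-fold higher for Ntf-2. The rise of Ran was small and rested on the scaling of the libraries.

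Ntf-2r, the copy of nuclear transport factor 2, measured 54.6 and 55.0 RPKM in the Zeus knockdown, 28.9 and 32.4 RPKM in the Caf40 knockdown, and 64.1 and 54.1 RPKM in wildtype. The Caf40 knockdown libraries were both below every other library, and the Zeus knockdown libraries lay within the range of wildtype. In wildtype 84.9% to 86.7% of the listed genes had a lower RPKM than Ntf-2r, and in the Caf40 knockdown 75.1% and 78.0% did.

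Ntf-2, its parent, measured 11.3 and 11.7 RPKM in the Zeus knockdown, 50.1 and 44.3 RPKM in the Caf40 knockdown, and 15.4 and 17.6 RPKM in wildtype. The Caf40 knockdown libraries were highest, wildtype next and the Zeus knockdown libraries lowest, without overlap. With 2 libraries per group such separation is weak evidence, and how many of all genes share it was not counted. The Ntf-2 values rest on few reads, between 149 and 834 per library.

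Ran-like, the copy of the GTPase, measured 238 and 229 RPKM in the Zeus knockdown, 70.5 and 95.3 RPKM in the Caf40 knockdown, and 287 and 297 RPKM in wildtype. In RPKM the wildtype libraries were highest, the Zeus knockdown next and the Caf40 knockdown lowest, with the same limit on their separation. The fitted difference of the Zeus knockdown from wildtype, given below, did not pass its threshold. In wildtype Ran-like ranked 364 and 342 from the top of all listed genes by RPKM, above its parent, at 708 and 689. By reads Ran was higher there, with 8019 and 7673 against 7285 and 6981 for Ran-like. The listed exon lengths were 1743 bases for Ran and 1010 bases for Ran-like.

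Ran measured 176 and 178 RPKM in the Zeus knockdown, 295 and 270.5 RPKM in the Caf40 knockdown, and 183 and 189 RPKM in wildtype. The Caf40 knockdown libraries were above all others. The Zeus knockdown libraries lay below both wildtype libraries in RPKM, by little. In wildtype the order of the 4 genes by mean RPKM was Ran-like, Ran, Ntf-2r and Ntf-2, at 292 ± 6.99, 186 ± 4.26, 59.1 ± 7.05 and 16.5 ± 1.58 RPKM (SD, n = 2), and no neighbours in that order overlapped between libraries. The order in the Caf40 knockdown was Ran, Ran-like, Ntf-2 and Ntf-2r, at 283 ± 17.1, 82.9 ± 17.5, 47.2 ± 4.08 and 30.7 ± 2.46 RPKM, again without overlap.

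**Figure D1:**
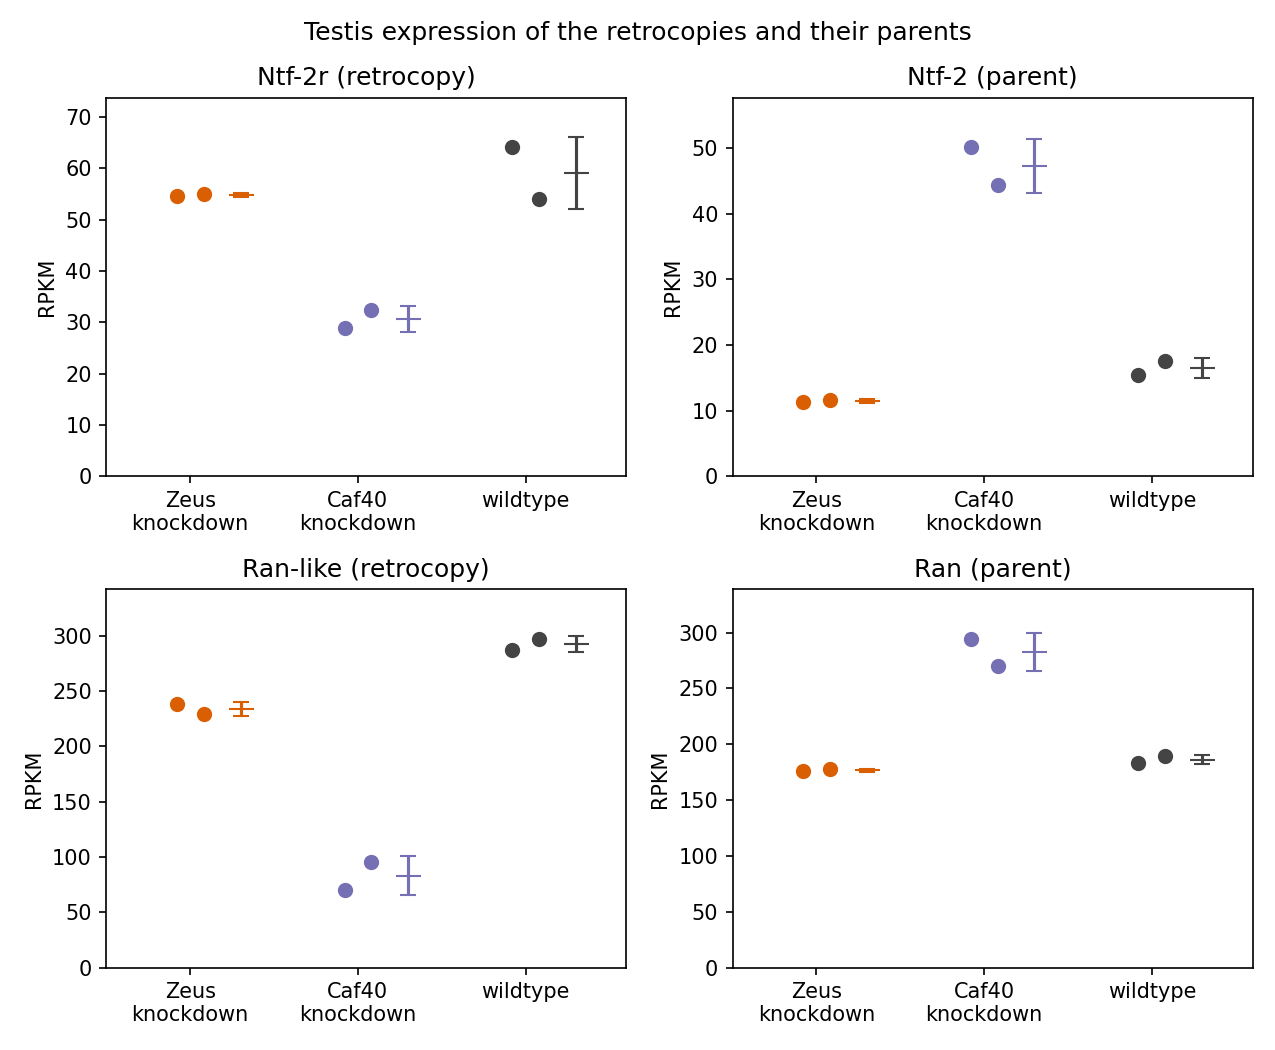
RPKM (vertical axis, starting at 0) of each gene in the 2 libraries of each group (points) with the group mean and SD beside them (bars, n = 2). Both retrocopies, on the left, are lowest in the Caf40 knockdown, at 28.9 and 32.4 RPKM for Ntf-2r and 70.5 and 95.3 RPKM for Ran-like, while both parents, on the right, are highest there.

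The fitted changes came from edgeR's quasi-likelihood test over all 10223 genes tested, with Benjamini-Hochberg adjustment over all of them and a threshold of 0.05. The fit scales libraries by TMM factors, so that its fold changes differ from ratios of RPKM. In the Caf40 knockdown against wildtype, all 4 genes passed, 2 higher and 2 lower, where 80.5% of all tested genes passed, 41.9% higher and 38.6% lower. A pass was therefore common in this comparison, and the sizes say more than the count.

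Ran-like fell by 2.04 on the log2 scale in the Caf40 knockdown (SE 0.14, edgeR adjusted p = 5.68e-09), and 255 of the 10223 tested genes fell further. Ntf-2r fell by 1.17 (SE 0.11, edgeR adjusted p = 2.44e-07), a fall that 1424 genes exceeded. Ntf-2 rose by 1.28 on the same scale (SE 0.10, edgeR adjusted p = 2.43e-08), and 1496 genes rose further. These 3 calls held in every alternative tried.

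Ran rose by 0.37 on the log2 scale in the Caf40 knockdown (SE 0.10, edgeR adjusted p = 0.00244). With the libraries scaled to the same median RPKM the rise was 0.07 (adjusted p = 0.536). That scaling moved the median of all tested genes by -0.30 against TMM, while scaling by library total moved it by 0.22 and gave a rise of 0.59 for Ran. Over all tested genes the median was 0.06 with TMM, so Ran stood above the typical gene in each scaling, as 4043 of 10223 genes rose further.

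In the Zeus knockdown 1 of the 4 genes passed, where 36.8% of all tested genes did, 16.8% higher and 20.0% lower. Ntf-2 fell by 0.37 on the log2 scale (SE 0.11, edgeR adjusted p = 0.0208). This call was lost without Zeus knockdown replicate 1 (adjusted p = 0.103) or 2 (0.107), without wildtype replicate 2 (0.197), with DESeq2 (0.0868) and under scaling to equal median RPKM (0.0732). Its junction reads alone gave -0.51 (adjusted p = 0.276). The other 3 genes did not pass: Ran-like had a log2 fold change of -0.17 (SE 0.13, edgeR adjusted p = 0.312), Ntf-2r of 0.04 (SE 0.11, adjusted p = 0.798) and Ran of 0.07 (SE 0.10, adjusted p = 0.569). Ran-like did pass without Caf40 knockdown replicate 1 or 2, at -0.17 each (adjusted p = 0.0048 and 0.00464), and when scaled by library total, at -0.34 (adjusted p = 0.0139). The signs of Ntf-2r and Ran turned with scaling by library total, to -0.12 and -0.09, and no direction is given for them in the Zeus knockdown.

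The 2 knockdowns differed directly for all 4 genes, in a comparison where 83.5% of all tested genes differed, 40.2% higher and 43.3% lower in the Zeus knockdown. The Zeus minus Caf40 knockdown difference was 1.86 for Ran-like (SE 0.14, edgeR adjusted p = 1.19e-08) and 1.21 for Ntf-2r (SE 0.12, edgeR adjusted p = 1.96e-07), both higher in the Zeus knockdown. It was -1.65 for Ntf-2 (SE 0.11, edgeR adjusted p = 3.8e-09), lower in the Zeus knockdown. For Ran it was -0.30 (SE 0.10, edgeR adjusted p = 0.00993), but 0.11 with libraries scaled to the same median (adjusted p = 0.32), and it also lost its call without Zeus knockdown replicate 1 or 2 (adjusted p = 0.112 and 0.0979). The 2 comparisons with wildtype share the wildtype libraries.

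**Figure D2:**
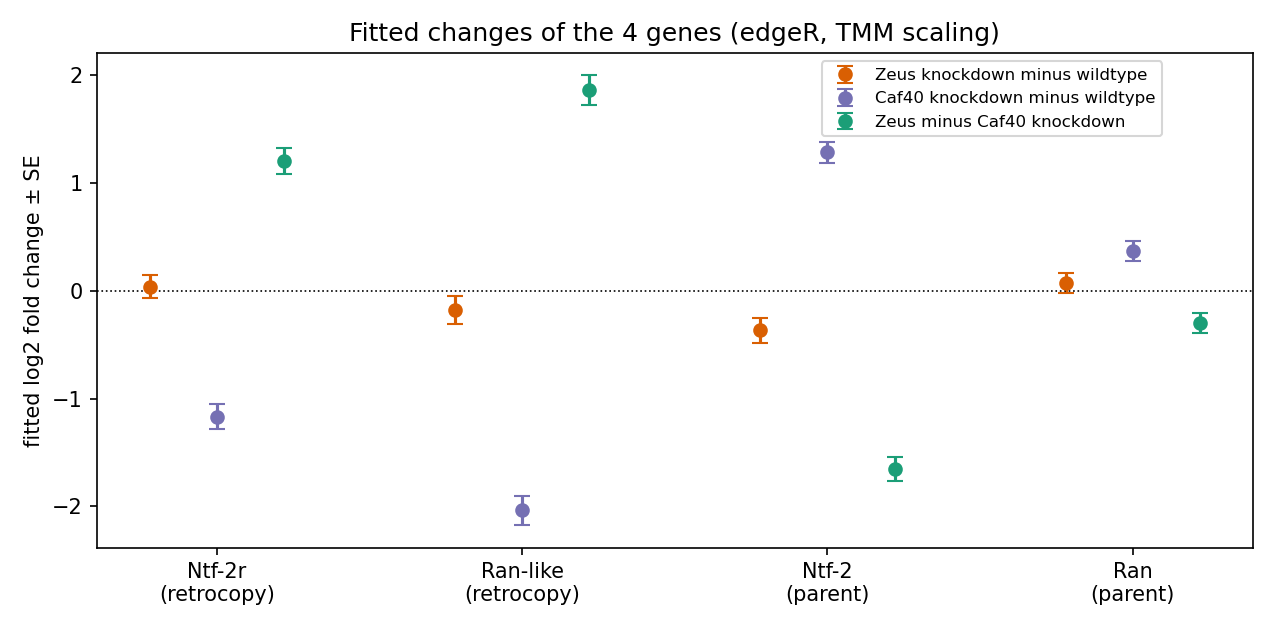
Fitted log2 fold change with its SE (vertical axis) of the 4 genes in the 3 comparisons, from 2 libraries per group. In the Caf40 knockdown Ran-like (-2.04) and Ntf-2r (-1.17) lie below 0 and Ntf-2 (1.28) above it, Ran (0.37) lies at 0.07 with libraries scaled to the same median, and the Zeus knockdown values lie between -0.37 and 0.07.

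The ratio of a retrocopy to its parent within 1 library does not depend on how libraries are scaled against each other. Whether it lies above or below 0 does depend on the listed exon lengths. Ntf-2r exceeded Ntf-2 by log2 ratios of 2.27 and 2.24 in the Zeus knockdown and 2.06 and 1.62 in wildtype, while in the Caf40 knockdown the ratios were -0.79 and -0.45, with the parent now above the copy. Ran-like exceeded Ran by log2 ratios of 0.44 and 0.37 in the Zeus knockdown and 0.65 and 0.65 in wildtype, and lay below it, at -2.06 and -1.51, in the Caf40 knockdown.

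In RPKM both pairs thus turned over in the Caf40 knockdown. Relative to wildtype the log2 ratio fell by 2.46 for Ntf-2r over Ntf-2 and by 2.43 for Ran-like over Ran. These falls are 5.51-fold and 5.40-fold. The SD of the log2 ratio reached 0.39 (Ran-like over Ran, Caf40 knockdown, n = 2), so how alike the 2 falls are cannot be told. In the Zeus knockdown the pairs moved in opposite directions and less, by 0.41 for Ntf-2r over Ntf-2 and by -0.25 for Ran-like over Ran. No groups overlapped in these ratios, but with 2 libraries against 2 an exact two-sided permutation test cannot go below p = 0.33, and each of these differences gave that value.

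Expressed as shares, Ntf-2r made up 82.9% and 82.5% of the summed RPKM of its pair in Zeus knockdown libraries, 36.6% and 42.2% in Caf40 knockdown libraries, and 80.7% and 75.5% in wildtype. Ran-like made up 57.5% and 56.3% of its pair in Zeus knockdown libraries, 19.3% and 26.1% in Caf40 knockdown libraries, and 61.1% and 61.1% in wildtype. The sum of the Ntf-2 pair was 66.3 ± 0.585 RPKM in Zeus knockdown libraries, 77.9 ± 1.63 in Caf40 knockdown libraries and 75.6 ± 5.47 in wildtype (SD, n = 2). The sum of the Ran pair was 410.5 ± 4.66, 365 ± 0.418 and 479 ± 11.3 RPKM in the same groups. In RPKM, the composition of the Ntf-2 pair changed in the Caf40 knockdown with a sum within the range of wildtype. The change of the Ran pair came with a lower sum. Unlike the ratio, a sum depends on how libraries are scaled. The TMM factors were 1.19 and 1.11 in Caf40 knockdown libraries and 0.980 and 0.992 in wildtype. Sums scaled by them were not computed.

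Rcd-1 and Rcd-1r form a parent and retrocopy pair of the same kind, and are the targets of the knockdowns. Their log2 ratio, Rcd-1r over Rcd-1, measured -4.29 and -4.27 with Zeus knocked down, 2.39 and 2.29 with Caf40 knocked down, and -2.14 and -1.85 in wildtype. Rcd-1r itself measured 135 and 114 RPKM in the Caf40 knockdown, against 22.2 and 26.4 RPKM in wildtype (log2 fold change 2.12, edgeR adjusted p = 2.56e-10), a rise where Ntf-2r and Ran-like fell.

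**Figure D3:**
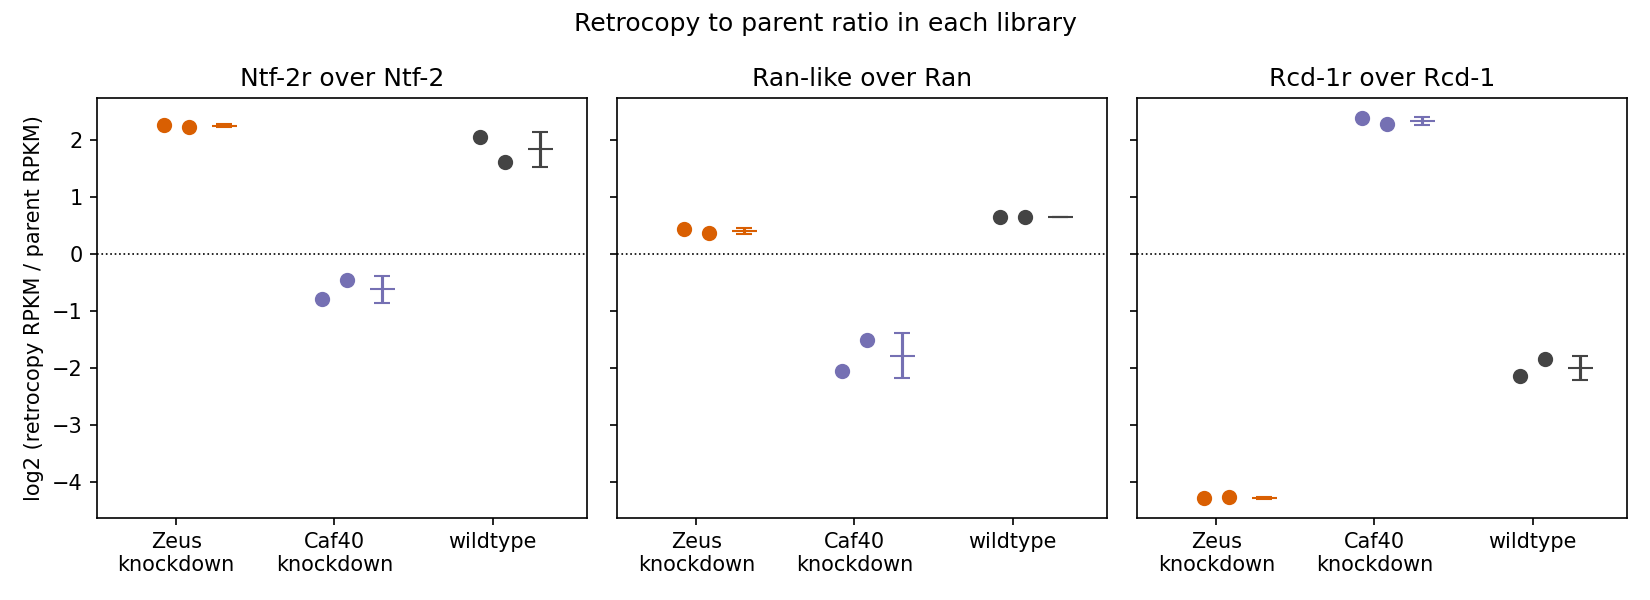
Log2 ratio of retrocopy RPKM to parent RPKM (vertical axis) in each library (points), with the group mean and SD (bars, n = 2). The dotted line marks equal RPKM. Ntf-2r over Ntf-2 and Ran-like over Ran lie above it in the Zeus knockdown and wildtype and below it in the Caf40 knockdown. Rcd-1r over Rcd-1 does the reverse.

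Reads on exon junctions were listed apart from reads on the genome. A retrocopy carries the joined exons of its parent, so a junction read of Ntf-2 may also match Ntf-2r. These reads give a second count of Ntf-2 but may not separate it from its copy. Ntf-2 had 20 and 28 junction reads in Zeus knockdown libraries, 84 and 96 in Caf40 knockdown libraries, and 44 and 59 in wildtype libraries. As shares of all Ntf-2 reads these were 13.4% and 10.4% with Zeus knocked down, 12.5% and 11.5% with Caf40 knocked down, and 11.2% and 14.1% in wildtype. The exact 95% binomial intervals of all 6 shares overlapped, with a lowest bound of 7.03%, and cover counting error only. The junction reads alone gave a log2 fold change of 1.21 for Ntf-2 in the Caf40 knockdown, against 1.28 from all reads, and of 1.30 from the genome reads alone.

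No junction reads were listed for Ntf-2r among its 3539 reads over the 6 libraries, or for Ran-like among its 25308 reads. A gene with 1 exon has no junction to count on. Of 908 genes with only single-exon transcripts and at least 1000 reads, 905 (99.7%) had no junction reads. No junction reads were listed for Ran either, among 42097 reads, although the current annotation gives all of its transcripts introns. This was common in these files: of 5836 genes with only spliced transcripts in that annotation and at least 1000 reads, 2204 (37.8%) had no junction reads. For Ran there is therefore no second count from junction reads. The sources used here do not say how reads matching both members of a pair were placed.

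Another gene, CG15449, lies on the opposite strand and overlaps Ntf-2 in the current annotation, and the counting is not stated to use strand. CG15449 measured 10.6 and 9.52 RPKM in the Zeus knockdown, 15.1 and 16.2 RPKM in the Caf40 knockdown, and 1.91 and 2.06 RPKM in wildtype. It was higher than wildtype in both knockdowns, while Ntf-2 was higher in the Caf40 knockdown and lower in the Zeus knockdown. The junction reads of Ntf-2 alone did not pass in the Zeus knockdown (log2 fold change -0.51, edgeR adjusted p = 0.276). Whether reads of CG15449 were counted for Ntf-2 was not tested. No annotated gene overlaps Ntf-2r, Ran or Ran-like.

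**Figure D4:**
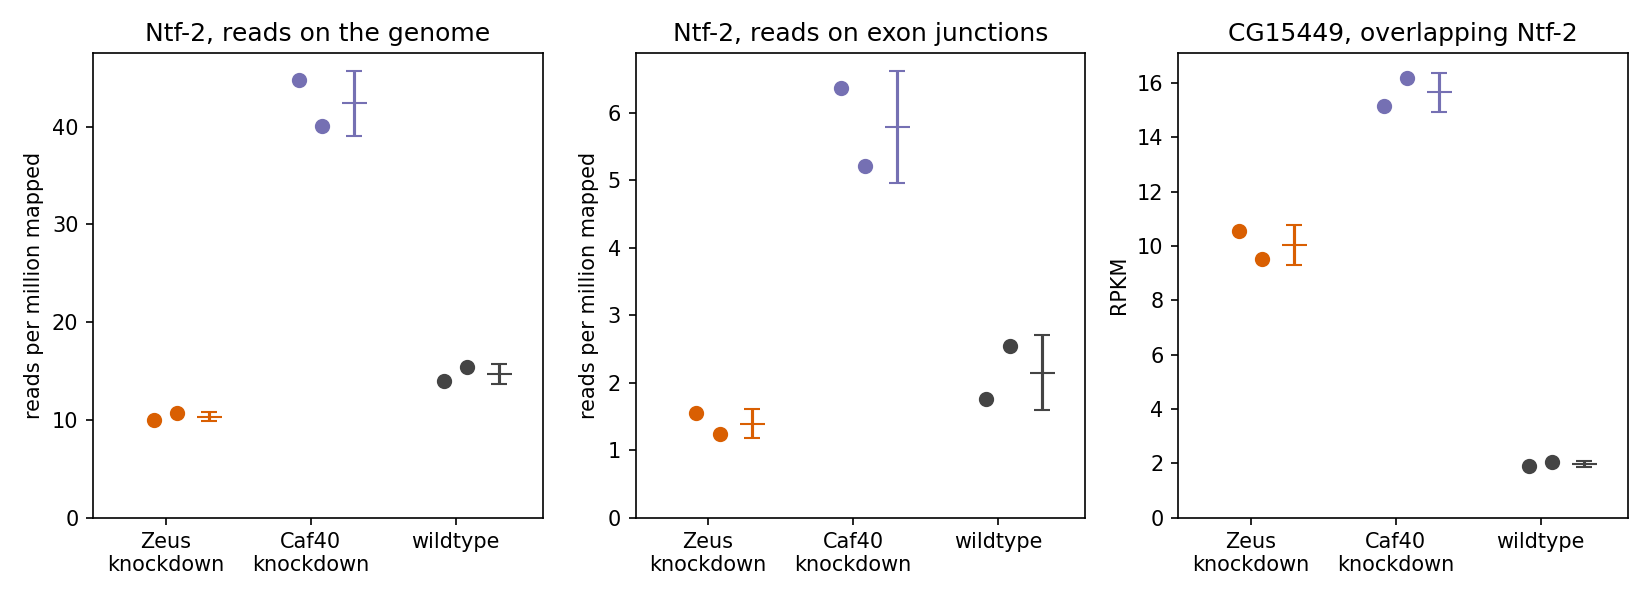
Reads of Ntf-2 on the genome and on exon junctions (both scaled to the mapped reads of the library) and RPKM of CG15449, for each library (points) with the group mean and SD (bars, n = 2). Both kinds of Ntf-2 reads are highest in the Caf40 knockdown and lowest in the Zeus knockdown, whereas CG15449 is lowest in wildtype, at 1.91 and 2.06 RPKM.

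The other genes of nuclear transport were read from a list of 58, of which 48 matched a listed gene and all 48 were tested. In the Caf40 knockdown 27 rose and 14 fell, with a median log2 fold change of 0.56 against 0.06 over all tested genes. Of all tested genes 41.9% rose and 38.6% fell in this comparison. The counts were 31 and 10 when scaled by library total and 25 and 18 when scaled to the same median. In the Zeus knockdown, where 16.8% of all tested genes rose and 20.0% fell, 5 of the list rose and 13 fell, with a median of -0.13 against -0.04 over all tested genes, but scaling to the same median gave 8 rises and 7 falls and scaling by library total 1 rise and 25 falls. Between the knockdowns 12 were higher and 28 lower in the Zeus knockdown, against 40.2% and 43.3% of all tested genes, with a median of -0.77 against -0.08.

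Nucleoporins, the building blocks of the nuclear pore, are 24 of the 48 genes, and 16 of them rose and 3 fell in the Caf40 knockdown, beside 41.9% and 38.6% of all tested genes. Nup205 measured 17.4 ± 1.88 RPKM in the Caf40 knockdown and 2.77 ± 0.0727 RPKM in wildtype (SD, n = 2; log2 fold change 2.42, edgeR adjusted p = 5.29e-11). Nup188, like Nup205 a scaffold nucleoporin, measured 17.7 ± 2.82 and 3.13 ± 0.0115 RPKM in the same groups (log2 fold change 2.26). Nup107, of the outer ring of the pore, and Nup153, of its nuclear basket, rose by log2 1.92 and 1.86.

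Receptors moved in both directions, as all tested genes did (41.9% higher, 38.6% lower). Among exportins 2 of 4 rose and 2 fell, and emb, the fly Crm1 that exports proteins with a leucine-rich signal, measured 71.6 ± 9.63 RPKM in the Caf40 knockdown and 16.0 ± 0.537 RPKM in wildtype (log2 fold change 1.93, edgeR adjusted p = 5.4e-10). Among importins of the beta family 3 of 6 rose and 2 fell, with msk, the fly importin 7, at 92.9 ± 10.6 RPKM in the Caf40 knockdown and 27.7 ± 0.140 RPKM in wildtype (log2 fold change 1.51). All 3 matched importins of the alpha family, of 4 listed, fell with TMM scaling. One of them, alphaKap4, measured 31.8 ± 5.82 RPKM in the Caf40 knockdown and 101 ± 6.63 RPKM in wildtype (log2 fold change -1.88, edgeR adjusted p = 6.59e-09). Another, Kap-alpha3, passed narrowly (log2 fold change -0.23, edgeR adjusted p = 0.0389), at means of 107.81 and 107.45 RPKM in the same groups.

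Among genes of messenger RNA export 4 of 7 rose and 3 fell, again beside 41.9% and 38.6% of all tested genes. Nxt1, a small partner of the export receptor that is related to Ntf-2 in its fold, measured 50.8 ± 8.96 RPKM in the Caf40 knockdown and 4.36 ± 1.13 RPKM in wildtype (log2 fold change 3.31, edgeR adjusted p = 9.12e-10), the largest rise of the list. Among regulators of the Ran cycle 2 of 4 rose, 1 fell and RanGAP, the GTPase activator of Ran, did not pass, at 57.6 ± 0.0230 RPKM in the Caf40 knockdown and 54.4 ± 2.15 RPKM in wildtype (log2 fold change -0.15, edgeR adjusted p = 0.141).

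Outside the naming rule, and chosen after their values were seen, Apl and nxf4 were the next deepest falls of the list after alphaKap4 in the Caf40 knockdown. Apl, an importin known from male fertility, measured 4.61 and 5.43 RPKM in the Caf40 knockdown and 12.4 and 11.1 RPKM in wildtype. The export receptor family member nxf4 measured 23.6 and 32.2 RPKM in the Caf40 knockdown and 80.4 and 78.6 RPKM in wildtype. Their log2 fold changes were -1.44 and -1.72 (edgeR adjusted p = 2.6e-08 and 1.52e-08), between those of Ntf-2r and Ran-like. That of the nucleoporin Elys, also chosen after its value was seen, lay there too, at -1.24 (edgeR adjusted p = 3.37e-08).

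In the Zeus knockdown the changes of the list were smaller. RanGAP changed most, at 21.0 ± 0.111 RPKM in Zeus knockdown libraries and 54.4 ± 2.15 RPKM in wildtype (SD, n = 2; log2 fold change -1.22, edgeR adjusted p = 2.3e-07). Nup188, Nup205, emb, Cse1, the exporter of importin alpha, and Dbp80, a helicase of messenger RNA export, fell by 0.69, 0.58, 0.46, 0.40 and 0.39 on the log2 scale, and the nucleoporins Nup43 and Nup154 rose by 0.75 and 0.40. The calls of emb, Cse1, Dbp80 and Nup154 were each lost without at least 1 library, and that of Nup154 also under library-total scaling, at 0.23 on the log2 scale (edgeR adjusted p = 0.0912), and with limma, at 0.22 (adjusted p = 0.139). Leaving out Zeus knockdown replicate 1 gave 3 rises and 5 falls of the list and leaving out replicate 2 gave 1 and 4, while leaving out wildtype replicate 1 gave 2 and 7 and replicate 2 gave 1 and 4.

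Between the knockdowns, Nup205, Nup188, emb, Nup107, Nup153, Nxt1 and msk were lower in the Zeus than in the Caf40 knockdown, by log2 differences between -4.10 for Nxt1 and -1.52 for msk. Of the 8 genes that the naming rule gave for this comparison, alphaKap4 was the 1 that was higher in the Zeus knockdown, with a difference of 2.05 (edgeR adjusted p = 2.74e-09).

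**Figure D5:**
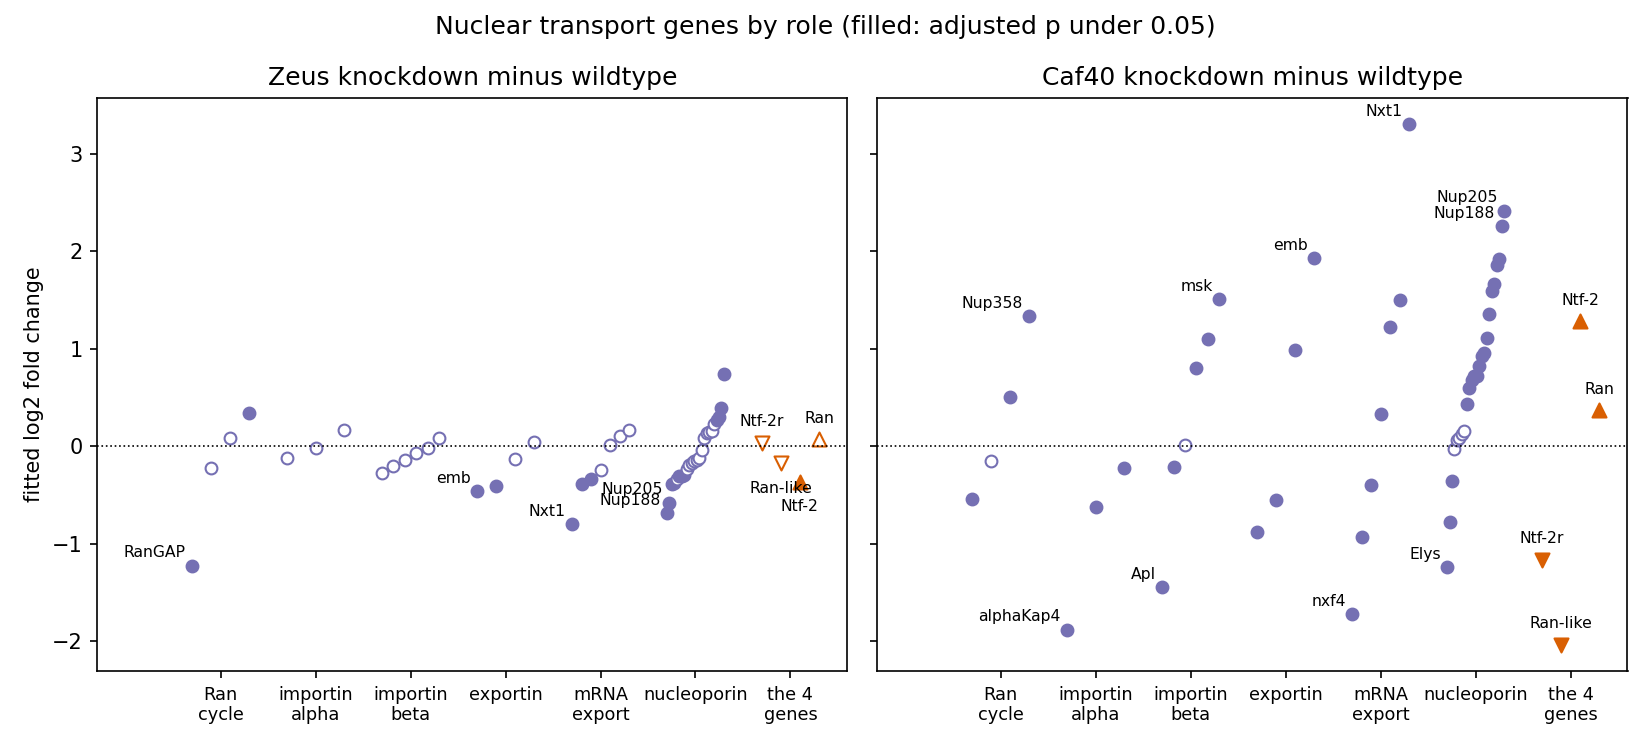
Fitted log2 fold change (vertical axis) of 48 nuclear transport genes grouped by role, with the 4 genes on the right (triangles, pointing down for retrocopies), for each knockdown against wildtype. Filled marks passed the adjusted p of 0.05. In the Caf40 knockdown alphaKap4 (-1.88), nxf4 (-1.72), Apl (-1.44) and Elys (-1.24) lie near Ran-like and Ntf-2r, while Nxt1 (3.31) and Nup205 (2.42) lie highest.

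Markers of germ cell stages moved with the Caf40 knockdown too, in which 80.5% of all tested genes were called, 41.9% higher and 38.6% lower. In whole testes, fewer cells of a type and less RNA per cell cannot be told apart. Of 4 spermatogonial markers 3 rose and 1 fell, with summed levels of 142 and 117 RPKM in the Caf40 knockdown and 55.3 and 53.8 RPKM in wildtype. The differentiation factor bam measured 41.0 and 32.1 RPKM in the Caf40 knockdown and 3.41 and 3.23 RPKM in wildtype, and the gap junction gene zpg 60.8 and 48.1 RPKM against 4.30 and 4.14 RPKM. The marker that fell, bgcn, measured 35.2 and 33.0 RPKM against 46.9 and 45.3 RPKM (log2 fold change -0.67, edgeR adjusted p = 7.37e-06). It held most of the wildtype sum. Of 10 spermatocyte markers 1 rose and 9 fell, with sums of 213 and 197 RPKM in the Caf40 knockdown and 265 and 275 RPKM in wildtype. Of 17 spermatid markers 0 rose and 11 fell, with sums of 16301 and 18275 RPKM in the Caf40 knockdown and 17081 and 17490 RPKM in wildtype, which overlap.

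In the Zeus knockdown, where 16.8% of all tested genes rose and 20.0% fell, 0 spermatogonial markers rose and 3 of 4 fell, with sums of 32.4 and 32.7 RPKM against 55.3 and 53.8 RPKM in wildtype. Most of these sums was bgcn, at 27.4 and 27.2 RPKM against 46.9 and 45.3 RPKM. Of the spermatocyte markers 0 rose and 3 of 10 fell, and of the spermatid markers 11 of 17 rose and 0 fell. The part of stage composition in the changes of the 4 genes was not tested.

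Cyst and hub cell markers summed to 53.9 and 54.5 RPKM in the Caf40 knockdown, 48.3 and 48.3 in the Zeus knockdown and 45.6 and 47.6 in wildtype, with 3 rises and 3 falls of 7 in the Caf40 knockdown and 2 rises and 0 falls in the Zeus knockdown. Muscle sheath markers summed to 73.5 and 51.7 RPKM in the Caf40 knockdown, 42.8 and 53.3 in the Zeus knockdown and 38.6 and 37.4 in wildtype, with 3 rises and 1 fall of 6 and with 3 rises and 0 falls. Accessory gland markers summed to 2.54 and 3.01 RPKM in the Caf40 knockdown, 18.9 and 14.7 in the Zeus knockdown and 9.56 and 8.66 in wildtype. Of the 8, SP and Acp62F had no reads in either Caf40 knockdown library. Of the 4 tested, 0 rose and 2 fell in the Caf40 knockdown and 2 rose and 1 fell in the Zeus knockdown. Beside the counts of these lists, 41.9% of all tested genes rose and 38.6% fell in the Caf40 knockdown. In the Zeus knockdown 16.8% of all tested genes rose and 20.0% fell. The part of these cell types in the changes was likewise not tested.

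Many genes shared the patterns of the 4 genes over the 6 libraries. By Pearson's r of log2(RPKM + 1), the genes most like Ran-like were Rab9Fb (r = 0.9997), bug (0.9993) and CG9624 (0.9992), and those most like Ntf-2r were asRNA:CR32252 (0.9983), CG31523 (0.9982) and CG30161 (0.9978). Rab9Fb, a Rab-family GTPase gene, averaged 18.3 RPKM in Zeus knockdown libraries, 8.20 in Caf40 knockdown libraries and 21.6 in wildtype. CG9624 averaged 240.1, 127 and 271 RPKM in the same groups, close to the levels of Ran-like outside the Caf40 knockdown.

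The genes most like Ntf-2 were SoYb, a Tudor-domain gene of the piRNA pathway (r = 0.99998), the tropomyosin Tm1 (0.9998) and the proteasome subunit Prosbeta4 (0.9998). Prosbeta4 averaged 34.7 RPKM in Zeus knockdown libraries, 122 in Caf40 knockdown libraries and 47.9 in wildtype. Those most like Ran were gammaTub37C, the maternal gamma-tubulin, CG11583 and Prx3, a mitochondrial peroxiredoxin (r = 0.9998 each). The levels of gammaTub37C were low, at means of 0.493 RPKM in Zeus knockdown libraries, 4.40 in Caf40 knockdown libraries and 0.699 in wildtype. Its relative rise was larger than that of Ran, as r does not measure the size of a change. The 6 points are 3 groups of 2 libraries, so high values are common: among 8532 candidate genes, r exceeded 0.99 for 1157 with Ntf-2, 138 with Ntf-2r, 1110 with Ran and 341 with Ran-like.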

How the data were processed

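The submitters' processing notes name Bowtie and the dm3 build. Neither the annotation release nor the treatment of multiply matching reads is stated in the sources used. The authors deposited, per the file headers, whole read counts per gene, split into genome and exon-junction reads, with listed exon lengths and library totals. They also deposited RPKM, which matched the count over listed length and mapped reads up to rounding. Files of the other species were not used.

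Symbols came from a current gene table that named 12862 of 15178 identifiers, and gene structures from the BDGP6 annotation, whose build is not the authors', so no coordinates are given. Genes averaging 1 RPKM or more across the 6 libraries (10223 genes) had their counts tested with edgeR 4.0.16 in R 4.3.3 (TMM factors from 0.881 to 1.19, quasi-likelihood test, two-sided). One estimate of the spread served all 3 groups (biological coefficient of variation 0.0747). Each SE was the fitted log2 fold change divided by the root of its F statistic. The fit was also run on simulated counts in which few genes changed, and only in the Zeus knockdown libraries. That run does not test the scaling where most genes were called. DESeq2 1.42.0 and limma 3.58.1 served as alternatives.

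The members and lists were chosen with earlier results of these data known. Named by rule were the 4 genes, Rcd-1 and Rcd-1r for the ratio, up to 8 transport genes with the smallest p per comparison, and the 3 genes with the highest r per member among those whose log2(RPKM + 1) ranged over at least 0.3. Binomial intervals cover counting error only. Replicates differed beyond sampling noise in each group (chi-square per degree of freedom 2.03 in Zeus knockdown, 13.8 in Caf40 knockdown and 4.96 in wildtype libraries).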

Additional observations from a re-analysis of the deposited data

Results flagged for a closer look

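All 4 genes differed between the Zeus and Caf40 knockdowns compared directly with edgeR's quasi-likelihood test, with 2 libraries in each group. So did 83.5% of all tested genes, 40.2% higher and 43.3% lower in the Zeus knockdown. The log2 difference, Zeus minus Caf40 knockdown, was -1.65 for Ntf-2, 1.21 for Ntf-2r, -0.30 for Ran and 1.86 for Ran-like. Of these, only that of Ran lost its call under some alternatives.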

How the results depend on the processing

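Over 16 or 17 alternatives per gene, the Caf40 knockdown changes of Ran-like (-2.34 to -1.81), Ntf-2r (-1.47 to -0.92) and Ntf-2 (0.98 to 1.51) and their differences between the knockdowns kept direction and call. Few reads lie behind Ntf-2 (149 to 834 per library) and Ntf-2r (233 to 983), and no junction fit exists for Ran, which has no junction reads. Ran in the Caf40 knockdown measured 0.069 with libraries scaled to the same median, and its Zeus minus Caf40 difference 0.11 there, -0.22 with DESeq2 size factors and from -0.31 to -0.27 without 1 library. In the Zeus knockdown, Ntf-2 lost its call with the same median (-0.26), with DESeq2 (-0.35), with junction reads only (-0.51) and in 3 of the 6 fits without 1 library, which ranged from -0.46 to -0.27. Ran-like passed with library totals (-0.34), with only the 2 groups compared (-0.17) and without a Caf40 knockdown library (range without 1 library -0.20 to -0.15). Ntf-2r turned to -0.12 with library totals and -0.10 with limma, ranging from -0.077 to 0.17 without 1 library, and Ran turned to -0.087 and -0.075. The likeness of Ran to gammaTub37C, CG11583 and Prx3 was 0.963, 0.972 and 0.993 with TMM-scaled CPM, a scale chosen after seeing the data. The cause of these losses was not tested.

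Zeus knockdown counts moved. Transport rises were 1 with library totals, 8 with the same median, 1 with limma, 8 with only the 2 groups and 1 to 8 without 1 library, and falls were 25, 7 and 23 for the first 3 and 4 to 18 without 1 library. Over all genes, rises were 1000 with library totals, 931 with limma, 2710 with only the 2 groups and 729 to 2694 without 1 library. Falls were 3567 with library totals, 1321 with the same median, 1346 with DESeq2, 3121 with limma and 896 to 2668 without 1 library. Rises made up 45.6% of these calls, 21.9% with library totals and 65.0% with the same median. In the Caf40 knockdown they made up 52.0%, 61.1% and 39.8%, and between the knockdowns 48.1%, 36.5% and 61.2%. With limma the share was 23.0% for the Zeus knockdown and 36.7% between the knockdowns. Against TMM, the median of all genes moved by -0.16 (Zeus knockdown), 0.22 (Caf40 knockdown) and -0.38 (between them) with library totals, and by 0.10, -0.30 and 0.40 with the same median. Between the knockdowns, 19 transport genes were higher with the same median.

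No pairing by the replicate numbers of the labels was seen over all genes (correlations of deviations -0.01, -0.02 and -0.07). This cannot exclude a shared effect that is small or limited to few genes. The fit with a replicate block changed no call of the 4 genes (Ntf-2 in the Zeus knockdown -0.37, edgeR adjusted p = 0.0247). It gave 1652 rises and 1963 falls in the Zeus knockdown.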
